A study of Mus musculus with 18 samples.

Results

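The leucocyte adhesion molecules of the vessel wall studied here were the transcripts of Icam1, Icam2, Vcam1, Sele and Selp, the 5 rows of these names among the 16248 genes of the expression table. All 5 passed the filter on low values, as did 13983 genes in all. They were followed in 18 libraries of endothelial cells (ECs), 3 libraries in each of 6 groups, sorted as live CD45-negative, CD31-positive cells. The tissues were the normal mammary fat pad of wild type FVB mice, the spontaneous breast tumours of MMTV-PyMT mice, and implanted breast tumours grown in FVB mice from cultured MMTV-PyMT tumour cells. Each tissue had received an injection of PBS or of cGAMP, a cyclic dinucleotide that activates STING (stimulator of interferon genes), and was collected 3 hours later. The MMTV promoter drives the PyMT oncogene mainly in mammary epithelium, the source of the tumour cells in both models. The labels state no ages. The study describes 3 mice a group from several independent experiments, but the labels do not assign libraries to experiments.

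Leucocytes leave the blood in steps, and these molecules serve successive ones. E-selectin (Sele) and P-selectin (Selp) bind sugar-bearing ligands such as PSGL-1 and let leucocytes tether and roll. Selp protein is also stored ready-made in Weibel-Palade bodies of ECs and in platelets, and transcript levels say nothing of that pool. ICAM1 (Icam1) and ICAM2 (Icam2) are ligands of the integrin LFA-1, and VCAM1 (Vcam1) is the ligand of the integrin VLA-4, which together hold rolling cells firmly. In ECs, Icam1, Vcam1 and Sele are textbook inflammatory genes under NF-kB, a transcription factor that STING signalling also activates, whereas Icam2 is known for a high resting level.

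Icam1 (ENSMUSG00000037405.8) lies on the plus strand of chr9:21015985-21028817 (GRCm38). Icam2 (ENSMUSG00000001029.15) lies on the minus strand of chr11:106377656-106388075. Vcam1 (ENSMUSG00000027962.14) lies on the minus strand of chr3:116109949-116129688. Sele (ENSMUSG00000026582.6) at chr1:164048234-164057677 and Selp (ENSMUSG00000026580.16) at chr1:164115264-164150026 share a strand, the plus strand, with their first bases 67.0 kb apart. All 5 are protein coding in GENCODE M21.

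The RefSeq promoter table (GRCm38.p6) held 3 of the 5 genes, Icam1, Sele and Selp. Their 250 bases before the annotated start are printed because these 3 genes rose after cGAMP in MMTV-PyMT ECs and because Icam1 and Sele are classical NF-kB genes. Capitals mark matches to GGNNNTTCC on either strand, a kB-like pattern, to TGACNTCA on either strand, an ATF-like pattern, and to TATAAA on the plus strand. The patterns were chosen after the windows had been seen, and positions are counted back from -1, the base before the RefSeq start.
Icam1, chr9:21015690-21015939, plus strand: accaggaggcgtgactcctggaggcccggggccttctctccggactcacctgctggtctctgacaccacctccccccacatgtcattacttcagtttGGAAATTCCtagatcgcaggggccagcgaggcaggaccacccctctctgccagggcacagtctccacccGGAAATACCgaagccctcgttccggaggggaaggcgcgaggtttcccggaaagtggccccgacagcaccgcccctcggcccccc
Sele, chr1:164047984-164048233, plus strand: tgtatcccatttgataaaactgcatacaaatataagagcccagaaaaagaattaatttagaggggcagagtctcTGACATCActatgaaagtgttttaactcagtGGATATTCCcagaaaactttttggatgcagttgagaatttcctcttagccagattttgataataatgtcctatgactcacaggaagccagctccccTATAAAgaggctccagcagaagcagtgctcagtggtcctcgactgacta
Selp, chr1:164115014-164115263, plus strand: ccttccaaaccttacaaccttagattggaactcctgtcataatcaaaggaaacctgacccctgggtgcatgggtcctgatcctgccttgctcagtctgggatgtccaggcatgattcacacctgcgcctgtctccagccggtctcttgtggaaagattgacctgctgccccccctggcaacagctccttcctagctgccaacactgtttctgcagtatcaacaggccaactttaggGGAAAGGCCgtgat

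The kB-like pattern was found in all 3 windows, and in 15.7% of 32851 promoter windows of this length. As the pattern was chosen after these windows had been seen, these figures are no test of enrichment. In Icam1 it was read at bases -153 to -145, where the pattern matched on both strands, and again at -84 to -76 on the minus strand. In Sele it lay at -145 to -137, with the ATF-like pattern at -176 to -169 and the TATAAA match at -49 to -44. In Selp it was read on the minus strand at -14 to -6. The ATF-like pattern occurred in 7.49% of windows and TATAAA in 7.59%. An IRF-like pattern, the letters GAAA repeated after any 2 bases on either strand, occurred in 2.98% of windows and had no match in these 3, which says only that these letters are not in them. All of these are matches of letters only.

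The recovered depth was 8916799 to 11852755 reads per library, and 1 read per kilobase of exon was worth between 0.0753 and 0.1196 FPKM (fragments per kilobase of exon, scaled to the mapped depth). The members rested on recovered reads from 139 for Sele in implanted PBS replicate 1 to 13297 for Vcam1 in implanted cGAMP replicate 1. The endothelial markers Pecam1 and Cdh5 were high in every group, with group means of 156 to 304 FPKM and 291 to 590 FPKM. The sort was not free of other transcripts. The summed level of 5 epithelial markers lay between 241 and 521 FPKM in the normal and implanted libraries and between 561 and 861 FPKM in the MMTV-PyMT libraries, and the group means of Epcam ran from 60.1 to 204 FPKM. The leucocyte marker Ptprc (CD45) was at group means of 0.24 to 4.24 FPKM. In such bulk samples, fewer cells of a type and less RNA per cell cannot be told apart. Replicates within a group differed by more than sampling noise in all 18 pairs, with a chi-square per gene of 4.09 to 31.6, and implanted cGAMP replicates 1 and 2 differed most.

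**Figure D1:**
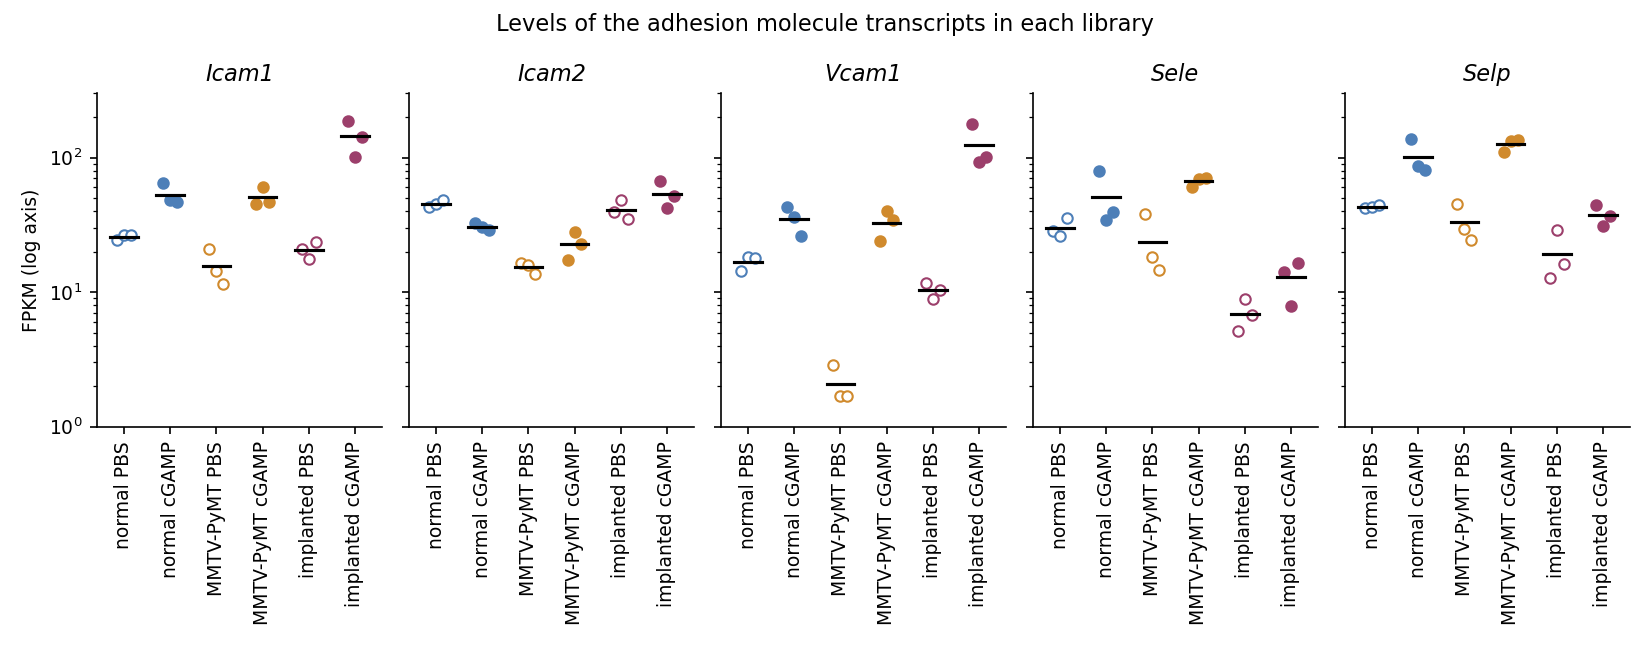
FPKM of the 5 genes on a log axis in each of the 18 libraries, by group; open points are PBS, filled points cGAMP, and black lines the means of 3 libraries. Icam1 and Vcam1 are highest in the 3 implanted cGAMP libraries, at 102 FPKM or more and 93.1 FPKM or more, whereas Sele and Selp are highest on average in MMTV-PyMT cGAMP.

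After cGAMP, 4 of the 5 genes passed in normal ECs (Icam1, Vcam1 and Selp rose, Icam2 fell), 4 rose in MMTV-PyMT ECs (Icam1, Vcam1, Sele and Selp), and 3 rose in implanted ECs (Icam1, Vcam1 and Selp). A gene passed when its adjusted p, from limma on log2(FPKM + 1) with Benjamini-Hochberg adjustment over all genes tested, was under 0.05. The shares of all genes tested that passed were 31.9% for normal, 12.0% for MMTV-PyMT and 39.1% for implanted ECs. A change of at least 2-fold in FPKM + 1 was then demanded as well. The members that passed numbered 1 of 5 for normal, 4 of 5 for MMTV-PyMT and 2 of 5 for implanted ECs. Of all genes, 3.70%, 2.56% and 7.22% did so. Icam1 (0.993) and Vcam1 (0.996) in normal ECs and Selp (0.988) in implanted ECs fell just short of a log2 change of 1. Their ratios of mean FPKM were 2.05, 2.09 and 1.95, so these counts turn on narrow margins. The 5 had a median log2 change of 0.99 (normal), 1.68 (MMTV-PyMT) and 0.99 (implanted), where the medians of all genes tested were -0.04, -0.04 and -0.01.

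**Figure D2:**
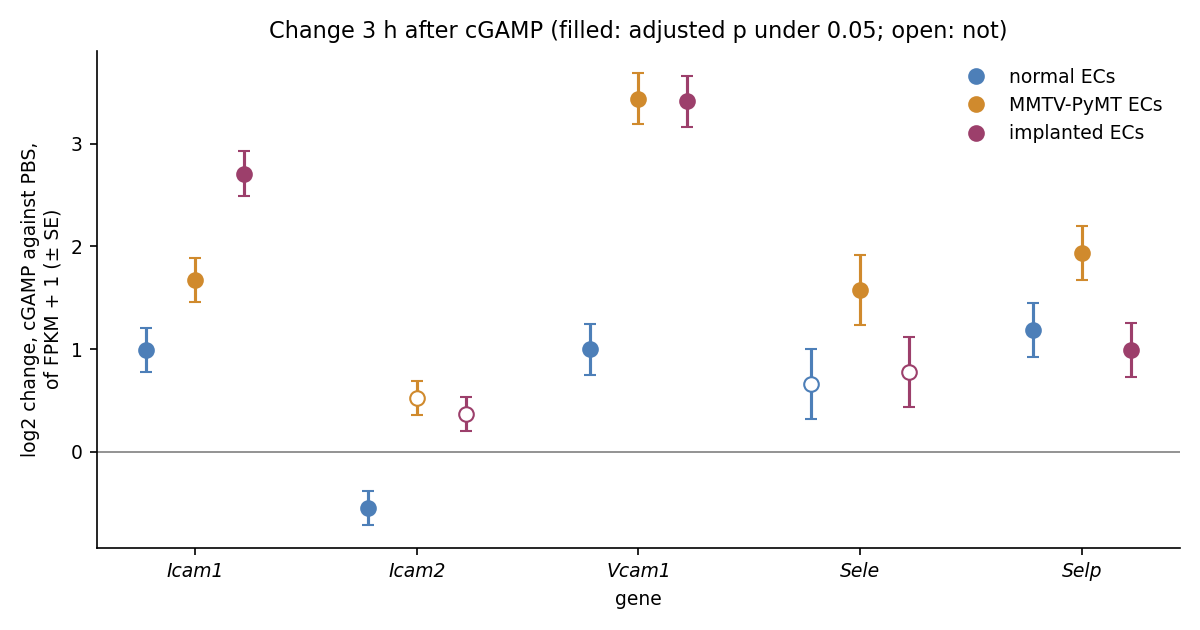
Log2 change of FPKM + 1 from PBS to cGAMP for each gene in the 3 tissues, with standard errors; filled points passed an adjusted p of 0.05 and open points did not. On this scale Vcam1 changed by about the same amount in both tumour models and Icam1 most in implanted ECs. Icam2 is below 0 only in normal ECs.

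Vcam1 had the lowest resting level of the firm adhesion ligands and the largest change in both tumours. In MMTV-PyMT ECs it was measured at 2.86, 1.70 and 1.68 FPKM under PBS and at 23.9, 39.9 and 34.2 FPKM under cGAMP. The lowest treated library was thus well above the highest control. The change was 3.44 ± 0.25 on the log2 scale (SE, 3 libraries against 3, limma's adjusted p = 4.24e-08), and the ratio of the mean FPKM was 15.7. In implanted ECs, Vcam1 went from 11.7, 8.86 and 10.3 FPKM to 179, 93.1 and 100.7 FPKM, a change of 3.42 ± 0.25 (limma's adjusted p = 2.01e-08) and a ratio of means of 12.1. In normal ECs it went from 14.4, 18.3 and 17.9 FPKM to 43.2, 36.3 and 25.9 FPKM. That rise of 1.0 ± 0.25 (limma's adjusted p = 0.006) corresponded to a ratio of means of 2.09. None of the 3 pairs of groups overlapped.

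The change of Vcam1 differed between tissues by the test of the difference itself. It was larger than in normal ECs by 2.45 ± 0.35 in MMTV-PyMT ECs (limma's adjusted p = 0.00108) and by 2.42 ± 0.35 in implanted ECs (limma's adjusted p = 0.000205). The 2 tumour models differed by -0.03 in the log2 change of Vcam1, with a 95% interval from -0.77 to 0.71 (limma's adjusted p = 0.973). Over the alternatives this difference ran from -0.52 to 0.15, and none passed. The lowest value was on the TPM scale, where it was -0.33 relative to the median of all genes. The log2(FPKM + 1) scale understates the change of low genes, and Vcam1 was low in MMTV-PyMT PBS libraries. Their levels were far apart all the same, since the PBS means were 2.08 and 10.3 FPKM and the cGAMP means 32.7 and 124 FPKM. In order of mean level, the cGAMP mean of MMTV-PyMT ECs came just below that of normal ECs, 35.1 FPKM, with overlapping ranges, and all other neighbours in that order were apart.

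Icam1, the inducible ligand of LFA-1, rose in all 3 tissues. In implanted ECs its level was 20.8, 17.7 and 23.4 FPKM under PBS and 188, 102 and 143 FPKM under cGAMP. The rise was 2.71 ± 0.22 (limma's adjusted p = 5.96e-08), a ratio of means of 6.99. In MMTV-PyMT ECs it went from 21.0, 14.5 and 11.4 FPKM to 45.4, 60.7 and 47.1 FPKM, which was 1.68 ± 0.22 (limma's adjusted p = 4.51e-05). In normal ECs it went from 24.4, 26.7 and 26.4 FPKM to 64.2, 48.1 and 46.5 FPKM, which was 0.99 ± 0.22 (limma's adjusted p = 0.00252). Every treated library was above every control of its tissue.

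The Icam1 change was larger in implanted than in normal ECs by 1.72 ± 0.30 (limma's adjusted p = 0.00103). It was larger in implanted than in MMTV-PyMT ECs by 1.04 ± 0.30 (limma's adjusted p = 0.0372), a call that was lost in 11 of 21 alternatives, among them quantile normalization (0.56, adjusted p = 0.247) and the TPM scale (0.81, adjusted p = 0.13). It was also lost when any of 8 single libraries was left out, implanted PBS 1 or 2, implanted cGAMP 1 or 3, MMTV-PyMT PBS 1 or 2, or MMTV-PyMT cGAMP 1 or 3, with adjusted p-values of 0.0602 to 0.0938. The difference between MMTV-PyMT and normal ECs was 0.68, with a 95% interval from 0.04 to 1.33, and did not pass (limma's adjusted p = 0.182). In order of mean level, Icam1 ran from implanted cGAMP (144 FPKM) through normal cGAMP (52.9 FPKM) and MMTV-PyMT cGAMP (51.0 FPKM), whose ranges overlapped, to the 3 PBS groups, of which implanted (20.6 FPKM) and MMTV-PyMT (15.6 FPKM) overlapped.

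Icam2, the constitutive ligand of LFA-1, went another way. In normal ECs it was at 43.3, 44.9 and 48.1 FPKM under PBS and at 32.5, 30.3 and 29.2 FPKM under cGAMP. It fell by 0.55 ± 0.17 on the log2 scale (limma's adjusted p = 0.0195), and the groups did not overlap. This call was lost without normal PBS replicate 3 (adjusted p = 0.068) and without normal cGAMP replicate 3 (adjusted p = 0.0601). It was also lost after scaling to the 6 endothelial markers (-0.35, adjusted p = 0.089), although relative to the median of all genes, which that scaling moved to 0.15, it was -0.51.

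In order of mean level, Icam2 ran from implanted cGAMP (53.6 FPKM) through normal PBS (45.4 FPKM) and implanted PBS (41.0 FPKM), each overlapping the next, down to MMTV-PyMT PBS (15.3 FPKM). In MMTV-PyMT ECs, Icam2 was at 16.3, 15.8 and 13.6 FPKM under PBS and at 17.3, 28.1 and 22.8 FPKM under cGAMP. All treated libraries were above all controls, but the difference of 0.52 ± 0.17 did not pass (limma's adjusted p = 0.0529), and it passed in 4 of 15 alternatives. These were a pseudocount of 0.1 (adjusted p = 0.0499), a mean FPKM of at least 5 (adjusted p = 0.0412), quantile normalization (adjusted p = 0.0395) and the fit without MMTV-PyMT cGAMP replicate 1 (0.70, adjusted p = 0.0112). In implanted ECs the levels were 39.2, 48.8 and 35.0 FPKM and 67.0, 42.5 and 51.5 FPKM, with a difference of 0.37 ± 0.17 (limma's adjusted p = 0.0944) and overlapping groups. It passed without implanted PBS replicate 2 (0.50, adjusted p = 0.0428) and without implanted cGAMP replicate 2 (0.52, adjusted p = 0.0245).

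The response of Icam2 differed from that of normal ECs in both tumour models. The difference was 1.08 ± 0.24 for MMTV-PyMT ECs (limma's adjusted p = 0.0118) and 0.92 ± 0.24 for implanted ECs (limma's adjusted p = 0.0125). Scaled to the 6 endothelial markers the former was 0.76 and did not pass (adjusted p = 0.0609), and on the TPM scale the latter was 0.65 and did not pass (adjusted p = 0.068). Relative to the medians of all genes under these scalings they were 1.06 and 0.87.

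Over the 3 tests of a difference in response, 2 members passed between MMTV-PyMT and normal ECs (Icam2 and Vcam1), 3 between implanted and normal ECs (Icam1, Icam2 and Vcam1) and 1 between implanted and MMTV-PyMT ECs (Icam1). Of all genes tested, 8.37%, 18.6% and 11.1% passed in the same order. No selectin passed in any of them, and every member that passed was an immunoglobulin-type ligand of a leucocyte integrin. Selectins and these ligands were not compared by a test. The standard errors of the differences were larger for Selp (0.37) and Sele (0.48) than for Icam1 (0.30), Icam2 (0.24) and Vcam1 (0.35). Each pair of these tests shares the libraries of 1 tissue, so they are not independent.

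Selp rose in all 3 tissues. In MMTV-PyMT ECs it was at 45.3, 29.6 and 24.3 FPKM under PBS and at 109, 133 and 135 FPKM under cGAMP, which was 1.94 ± 0.26 (limma's adjusted p = 8.64e-05) and a ratio of means of 3.80. In normal ECs it went from 42.4, 42.7 and 44.4 FPKM to 138, 86.2 and 81.6 FPKM, which was 1.18 ± 0.26 (limma's adjusted p = 0.00303). In implanted ECs it went from 12.8, 28.8 and 16.1 FPKM to 44.7, 30.9 and 36.7 FPKM, which was 0.99 ± 0.26 (limma's adjusted p = 0.0073). No treated group overlapped its control, although in implanted ECs the gap between 28.8 and 30.9 FPKM was narrow.

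Sele passed in MMTV-PyMT ECs, where it went from 38.3, 18.2 and 14.7 FPKM to 60.2, 69.9 and 71.0 FPKM. That was 1.57 ± 0.34 (limma's adjusted p = 0.00628) with no overlap. In normal ECs it was at 28.4, 26.3 and 35.6 FPKM under PBS and at 79.9, 34.2 and 39.5 FPKM under cGAMP, a difference of 0.66 ± 0.34 (limma's adjusted p = 0.154). Here 2 of 3 treated libraries were above all controls and replicate 1 stood well above the others. In implanted ECs it was at 5.11, 8.88 and 6.74 FPKM and at 14.1, 7.92 and 16.6 FPKM, a difference of 0.78 ± 0.34 (limma's adjusted p = 0.0817) that passed without implanted cGAMP replicate 2 (1.07, adjusted p = 0.0258).

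In order of mean level, both selectins were highest in MMTV-PyMT cGAMP (67.0 FPKM for Sele and 126 FPKM for Selp) and lowest in implanted PBS (6.91 and 19.2 FPKM). All neighbours in the order of Sele overlapped, and for Selp only normal cGAMP (102 FPKM) and normal PBS (43.1 FPKM) were apart. Differences in the selectin response between tissues had wide intervals. Between implanted and MMTV-PyMT ECs the log2 change of Selp differed by -0.95, with a 95% interval from -1.74 to -0.16 (limma's adjusted p = 0.12), which passed after quantile normalization (-1.18, adjusted p = 0.0491). The log2 change of Sele differed by -0.80, with an interval from -1.82 to 0.23 (limma's adjusted p = 0.339). Between MMTV-PyMT and normal ECs, the differences were 0.75 for Selp (interval -0.04 to 1.54) and 0.92 for Sele (interval -0.10 to 1.94). A test that misses its threshold with intervals of this width does not show that the tissues responded alike.

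Under PBS each of the 5 genes differed between at least 1 pair of tissues. Between MMTV-PyMT and normal ECs 3 members passed, and all 3 were lower in the tumour (Icam1, Icam2 and Vcam1), against 56.5% of all genes passing. Between implanted and normal ECs 3 members passed, again all lower in the tumour (Vcam1, Sele and Selp), against 48.7% of all genes. Between implanted and MMTV-PyMT ECs 4 passed, with Icam2 and Vcam1 higher and Sele and Selp lower in implanted ECs, against 45.5% of all genes. With backgrounds of this size the counts by themselves are not a result about the members.

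Vcam1 and Icam2 had the lowest PBS levels in MMTV-PyMT ECs. Vcam1 was lower there than in normal ECs by a log2 difference of -2.55 ± 0.25 (limma's adjusted p = 4.57e-07), and higher in implanted than in MMTV-PyMT ECs by 1.89 ± 0.25 (limma's adjusted p = 2.04e-05). Icam2 was lower in MMTV-PyMT than in normal ECs by -1.52 ± 0.17 (limma's adjusted p = 1.86e-06) and higher in implanted than in MMTV-PyMT ECs by 1.36 ± 0.17 (limma's adjusted p = 1.19e-05). The ranges of the groups did not overlap in these comparisons. Icam1 was lower in MMTV-PyMT than in normal ECs by -0.73 ± 0.22 (limma's adjusted p = 0.00873), a call lost without MMTV-PyMT PBS replicate 3 (-0.54, adjusted p = 0.0562).

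The selectins had their lowest PBS levels in implanted ECs. Sele was lower there than in normal ECs by -1.99 ± 0.34 (limma's adjusted p = 0.000159) and than in MMTV-PyMT ECs by -1.55 ± 0.34 (limma's adjusted p = 0.00164). Selp was lower by -1.20 ± 0.26 (limma's adjusted p = 0.0013) and by -0.78 ± 0.26 (limma's adjusted p = 0.0236). Only in this last comparison did the selectin ranges overlap, by implanted PBS replicate 2. This call was lost with only the 6 libraries compared (adjusted p = 0.061) and without implanted PBS replicate 1 (-0.55, adjusted p = 0.118), implanted PBS replicate 3 (-0.70, adjusted p = 0.0783) or MMTV-PyMT PBS replicate 1 (-0.54, adjusted p = 0.123). Vcam1 was lower in implanted than in normal ECs by -0.66 ± 0.25 (limma's adjusted p = 0.0358), which was lost without normal PBS 2 or 3 or implanted PBS 2 or 3 (adjusted p-values of 0.0712 to 0.115). Scaling to the 6 endothelial markers moved the median of all genes. It put the median gene at 0.64 in MMTV-PyMT and at 0.34 in implanted against normal ECs, where Icam1 (MMTV-PyMT) and Vcam1 (implanted) no longer passed but stood at -0.75 and -0.67 relative to that median.

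Between MMTV-PyMT and normal ECs the selectins did not pass, with -0.44 ± 0.34 for Sele (limma's adjusted p = 0.288) and -0.42 ± 0.26 for Selp (limma's adjusted p = 0.187). Without MMTV-PyMT PBS replicate 1, the library with the highest selectin levels of its group, both passed (-0.83, adjusted p = 0.0401, and -0.66, adjusted p = 0.0494), and 5 members passed in place of 3. The PBS libraries used here are also the controls of the cGAMP comparisons, so a low PBS level and a large change after cGAMP are not separate observations.

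Other transcripts differed between these PBS groups too. The 5 epithelial markers summed to 283 to 361 FPKM in normal, 337 to 481 FPKM in implanted and 798 to 861 FPKM in MMTV-PyMT ECs. The 6 endothelial markers summed to 885 to 992, 847 to 1080 and 622 to 759 FPKM in the same order. The 5 venous markers (Nr2f2, Ephb4, Ackr1, Vwf and Lrg1) summed to 423 to 504 FPKM in normal, 318 to 352 FPKM in MMTV-PyMT and 228 to 326 FPKM in implanted ECs, and 3 of 5 were lower than in normal ECs in either tumour model (1 was higher in MMTV-PyMT ECs), with median log2 differences of -1.94 (MMTV-PyMT) and -1.72 (implanted). The 6 markers of fibroblasts and mural cells summed to 811 to 921 FPKM in normal ECs. They summed to 296 to 348 FPKM in MMTV-PyMT and to 383 to 393 FPKM in implanted ECs. In either tumour model 4 of these 6 were lower than in normal ECs and 1 was higher. The 4 platelet markers summed to 8.41 to 12.8 (normal), 2.45 to 3.11 (MMTV-PyMT) and 3.22 to 3.64 FPKM (implanted), and 3 of 4 were lower in either model. Of all genes tested, 26.6% were lower in MMTV-PyMT and 23.6% in implanted than in normal ECs. The part of these marker lists in the PBS differences was not tested.

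Measured per length of transcript, the make-up of the 5 differed by group. Under PBS, Icam2 held 28.2% ± 0.21 (SD, n = 3) of their summed FPKM in normal ECs and 41.7% ± 3.0 in implanted ECs, where it was the most abundant of the 5, whereas Selp held 36.9% ± 0.28 in MMTV-PyMT ECs. Under cGAMP, Selp was the most abundant in normal (37.3% ± 1.1) and MMTV-PyMT ECs (42.1% ± 1.8). In implanted ECs under cGAMP, Icam1 (38.7% ± 2.1) and Vcam1 (33.0% ± 3.8) made up most of the sum and the selectins little of it (Selp 10.3% ± 1.1, Sele 3.49% ± 1.1). Summed over the 5, normal ECs had 161 ± 9.96 FPKM under PBS and 272 ± 74.8 FPKM under cGAMP, MMTV-PyMT ECs 89.8 ± 30.2 and 299 ± 38.8 FPKM, and implanted ECs 98.1 ± 13.0 and 373 ± 110 FPKM.

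**Figure D3:**
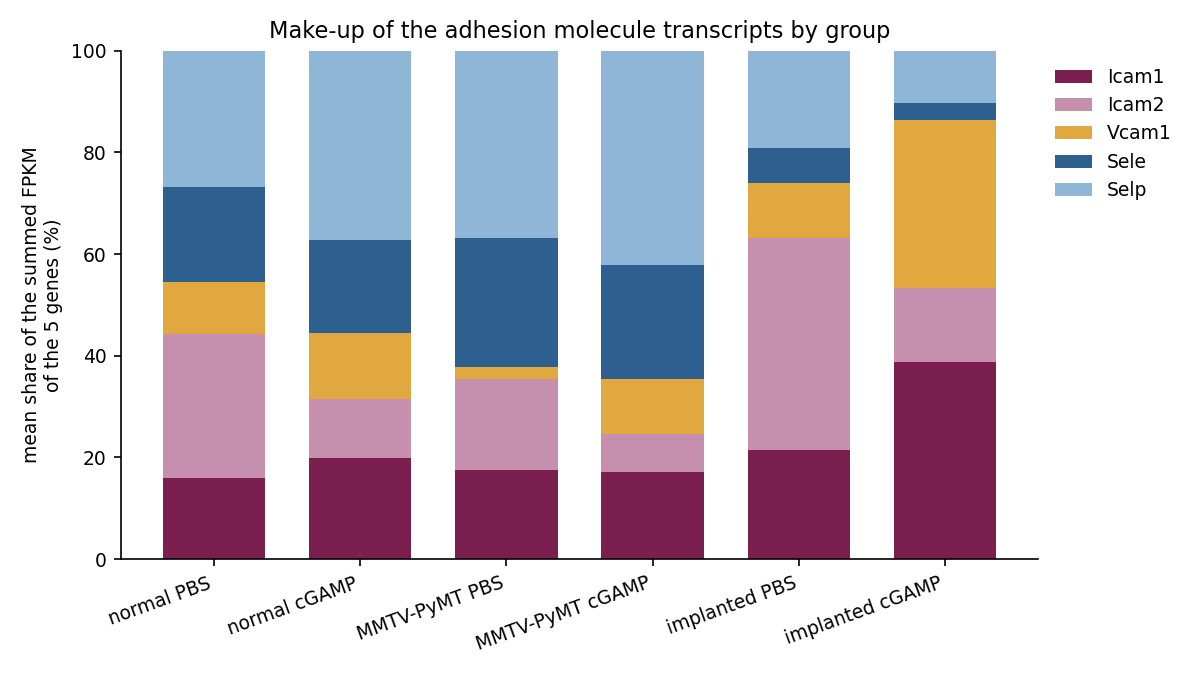
Mean share of each gene in the summed FPKM of the 5, in percent, by group of 3 libraries. In implanted cGAMP ECs Icam1 and Vcam1 fill 38.7% and 33.0% of the bar, and in MMTV-PyMT cGAMP ECs Selp and Sele fill 42.1% and 22.5%.

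The ratio of Vcam1 to Selp, a ligand of firm adhesion against a selectin of rolling, shows this contrast library by library. It was 0.34, 0.43 and 0.40 in normal PBS and 0.31, 0.42 and 0.32 in normal cGAMP ECs, which overlap. In MMTV-PyMT ECs it was 0.0632, 0.0572 and 0.0689 under PBS and 0.22, 0.30 and 0.25 under cGAMP. In implanted ECs it was 0.91, 0.31 and 0.64 under PBS and 4.01, 3.01 and 2.74 under cGAMP. The implanted cGAMP libraries were the only ones of the 18 with more Vcam1 than Selp. The pair of genes was picked after their values had been seen, and no test was made.

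Across the 18 libraries, Sele and Selp had a Pearson r of 0.93 on log2(FPKM + 1), and Icam1 and Vcam1 one of 0.95. Across these 2 pairs the values were lower. Sele had 0.16 with Icam1 and 0.13 with Vcam1, and Selp had 0.405 and 0.392 in the same order. Icam2 had -0.35 with Sele, -0.198 with Selp, 0.494 with Icam1 and 0.65 with Vcam1. With the group means removed, r was 0.85 for Sele and Selp and 0.82 for Icam1 and Vcam1. All other pairs were then positive too. Sele had 0.709 with Icam1 and 0.472 with Vcam1, and Selp had 0.527 and 0.453 in the same order. Icam2 had between 0.518 (Sele) and 0.682 (Vcam1) with the others. The points share the libraries, their depth and the group structure, and r is given as a description.

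**Figure D4:**
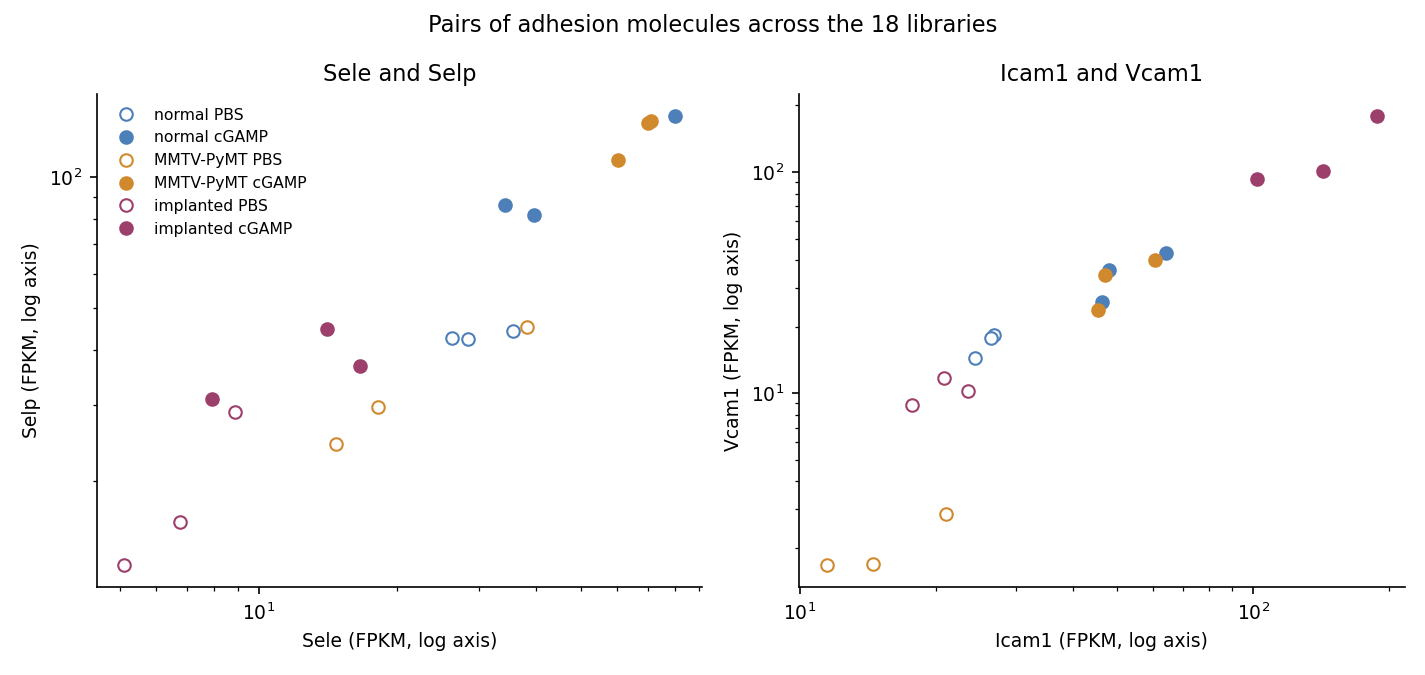
FPKM of Sele against Selp and of Icam1 against Vcam1 on log axes, 1 point per library, open for PBS and filled for cGAMP. The 3 implanted cGAMP libraries are at the upper end of the Icam1 and Vcam1 panel but at 16.6 FPKM or less in Sele, and Pearson r over the 18 libraries is 0.93 and 0.95.

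The genes most like each member over the 18 libraries, by the same r among all genes tested, were Selp for Sele (0.93) and Sele for Selp (0.93). They were followed by Dhx15 (0.90) and Gm42595 (0.90) for Sele, and by Slc3a2 (0.90) and P2ry2 (0.89) for Selp. Vcam1 was nearest to Gm8995 (0.99), Irf2 (0.98) and Sp100 (0.98), and Icam1 to Smg1 (0.98), Mndal (0.98) and Ifi203-ps (0.98). Icam2 was nearest to Itga9, Dleu2 and Anxa5 (each 0.97).

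Of 14 genes of the signalling that controls the members, the NF-kB subunits and their regulators, TNF and IL-1 receptors and Irf1, 10 rose in normal ECs and 12 in either tumour model, and none fell. Of all genes tested, the shares that rose were 13.7% (normal), 7.42% (MMTV-PyMT) and 20.3% (implanted). The median log2 changes of the 14 were 0.55 (normal), 0.76 (MMTV-PyMT) and 1.16 (implanted). The 10 that rose in all 3 tissues included Nfkb1, Nfkb2, Rela, Relb and Rel, which encode the NF-kB subunits. The others were the feedback inhibitors Nfkbia, Nfkbie and Tnfaip3, the NF-kB target Birc3, and the transcription factor Irf1. Irf1 rose by 1.99 (normal), 2.53 (MMTV-PyMT) and 1.53 (implanted). Tnfaip3 rose by 1.98, 2.17 and 2.01, and Nfkbie by 1.35, 1.48 and 2.33. The smallest of these rises, Nfkb1 in normal ECs at 0.31, was lost in all 6 fits without 1 library of that comparison. Rel in MMTV-PyMT ECs (0.61) and Nfkbia in normal ECs (0.49) were lost in 5 and 4 such fits. Over all alternatives, the calls were lost in 7 of 15 for Nfkb1, 8 of 14 for Rel and 4 of 15 for Nfkbia. Tnfrsf1b, which encodes a TNF receptor, rose by 1.19 in implanted and 0.94 in MMTV-PyMT ECs, and Traf1, a TNF receptor adaptor, by 1.39 in implanted ECs. Under PBS none of the 14 was higher and 10 were lower in MMTV-PyMT than in normal ECs, with Tnfrsf1b at -1.26, while 9 were higher and none lower in implanted than in MMTV-PyMT ECs, with Tnfrsf1b at 0.83. Between implanted and normal ECs 4 were higher and 2 lower, with the IL-1 receptor gene Il1r1 at -1.14. Of all genes tested, 29.8% were higher and 26.6% lower in MMTV-PyMT than in normal ECs under PBS. These shares were 20.8% and 24.6% for implanted against MMTV-PyMT ECs, and 25% and 23.6% for implanted against normal ECs.

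**Figure D5:**
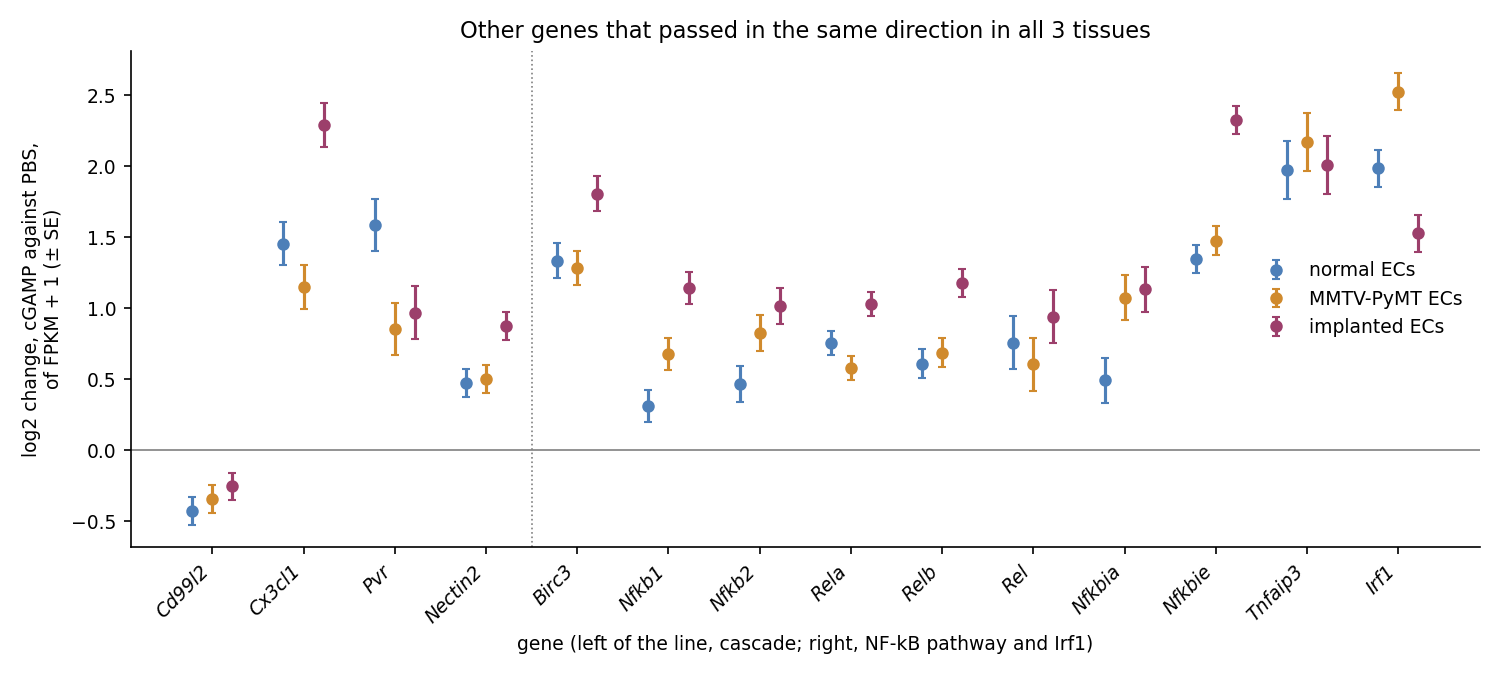
Log2 change of FPKM + 1 from PBS to cGAMP, with standard errors, of the 14 genes from the lists of cascade molecules and of NF-kB and IRF1 control that passed in the same direction in all 3 tissues. Cd99l2 is below 0 in each tissue, and Cx3cl1, Tnfaip3, Irf1 and Nfkbie reach log2 changes of 2 or more in at least 1.

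Of 24 other molecules of the adhesion and transmigration cascade, 23 were tested. Among them 5 rose and 3 fell after cGAMP in normal ECs, 4 rose against 1 that fell in MMTV-PyMT ECs, and the implanted ECs had 8 that rose and 1 that fell. The shares of all genes that fell were 18.2%, 4.57% and 18.8% in these tissues, beside the 13.7%, 7.42% and 20.3% that rose. Cx3cl1, the membrane-bound chemokine fractalkine that holds leucocytes bearing its receptor, rose by 1.46, 1.15 and 2.29 in the same order. The nectin-family genes Pvr (1.59, 0.86 and 0.97) and Nectin2 (0.47, 0.50 and 0.87) also rose in all 3, while Cd99l2, a molecule of transmigration, fell by 0.43, 0.34 and 0.25. The falls of Cd99l2 in the tumours were lost in 4 of the 6 fits without 1 library, in either model. Over all alternatives these calls were lost in 6 of 15 (MMTV-PyMT) and in 8 of 15 (implanted). Ackr1, a venular receptor that presents chemokines, rose by 1.51 (MMTV-PyMT) and 1.77 (implanted). Aoc3, the adhesion molecule VAP1, fell by 0.77 in normal ECs. That call was lost in 4 of 6 fits without 1 library and in 5 of 15 alternatives in all.

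Under PBS, 6 of these 23 were higher and 10 lower in MMTV-PyMT than in normal ECs, with Aoc3 at -3.12. The shares of all genes were 29.8% higher and 26.6% lower. Between implanted and normal ECs 9 were higher and 8 lower, with Ackr1 at -2.83, against 25% and 23.6% of all genes. Between implanted and MMTV-PyMT ECs 13 were higher and 7 lower, against 20.8% and 24.6% of all genes. Ezr, which encodes a linker of membrane and cytoskeleton, was at -1.07 in the last comparison. With shares of this size the counts by themselves are not a result about these molecules.

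The counter-receptors on leucocytes were mostly low. Group means were at most 9.87 FPKM for Itgb2 and 4.72 FPKM for Itgal, the subunits of LFA-1, and at most 1.30 FPKM for Itga4 of VLA-4. Itgb1 and Cd44, which ECs also express, were higher. Of 10 tested, 1 rose in normal ECs (Cd44, 0.57), none passed in MMTV-PyMT ECs, and 2 rose in implanted ECs (Cd44, 0.92, and Itgb1, 0.32). Of all genes tested, 13.7%, 7.42% and 20.3% rose in these tissues, so these counts are not a result about the list. Under PBS, 1 of the 10 was higher and 7 lower in MMTV-PyMT than in normal ECs (Itgb7, -2.33), against 29.8% and 26.6% of all genes. In implanted against normal ECs 2 were higher and 2 lower, against 25% and 23.6% of all genes. In implanted against MMTV-PyMT ECs 1 was higher and 1 lower (Cd44, -1.24), against 20.8% and 24.6% of all genes.

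Of the proteases that cleave such molecules from the cell surface, 3 of 4 were tested. Adam17 fell by 0.44 in normal ECs, none passed in MMTV-PyMT ECs, and 3 rose in implanted ECs, with Mmp14 at 0.55. Of all genes tested, 18.2% fell in normal ECs and 20.3% rose in implanted ECs. The Mmp14 call was lost in 3 of 15 alternatives, and its value ranged from 0.15 to 0.66 over them. Mmp14 was higher in MMTV-PyMT than in normal ECs by 0.69, in implanted than in normal ECs by 1.44 and in implanted than in MMTV-PyMT ECs by 0.75 under PBS.

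Markers of cells that can carry members themselves moved with some of these results. In implanted ECs the 6 leucocyte markers summed to 25.2 to 62.2 FPKM under PBS and 43.3 to 203 FPKM under cGAMP, overlapping ranges in which 1 of 6 passed, with Ptprc group means of 0.81 and 4.24 FPKM. The 4 platelet markers summed to 3.22 to 3.64 FPKM and 6.62 to 11.5 FPKM there, with 3 of 4 passing upwards, beside the rise of Selp. The 6 markers of fibroblasts and mural cells, which can express Vcam1 and Icam1, summed to 383 to 393 FPKM and 344 to 765 FPKM, with 2 of 6 passing upwards. Of all genes tested, 20.3% rose in implanted ECs. The part of these marker lists in the implanted changes was not tested. In MMTV-PyMT ECs none of the leucocyte, platelet, fibroblast and mural or epithelial markers passed after cGAMP, where 12.0% of all genes did. In normal ECs 1 of 4 platelet markers rose (Gp1ba, 0.60) and none of the other 3 lists had a gene that passed, while all 7 arterial markers fell, from a sum of 294 to 322 FPKM to one of 148 to 189 FPKM, beside the fall of Icam2. Of all genes tested, 13.7% rose and 18.2% fell in normal ECs. Of the other lists of ECs, 2 of 5 venous and 1 of 6 endothelial markers fell there and none rose, while 1 of 5 capillary markers rose. The part of the arterial and these other markers in the fall of Icam2 was not tested.

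Reads of the members can be shared with other annotated transcripts. Of the distinct 50-base stretches of GENCODE M21 transcripts, 13.1% for Icam1 and 0.46% for Vcam1 recur in transcripts of other genes, and 11.2% for Selp recur only in the opposite-strand genes Gm16548 and Gm16587, while those of Icam2 and Sele recur in none. Icam1 overlaps the antisense gene Gm47079 (0.18 to 1.43 FPKM) and Vcam1 the antisense gene Gm43109. Gm16587 was at 0.41 to 9.27 FPKM. The library kit keeps strand, but the strand setting of the counting is not given in the sources used here, so reads of a gene and its antisense partner may not be told apart.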

How the data were processed

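Live CD45-negative, CD31-positive ECs were sequenced as bulk RNA in 18 libraries. Per the labels and the study's methods, the authors aligned reads to mm10 with STAR 2.7 and counted them with HTSeq. They deposited FPKM values, whose exact computation and strand setting are not given in the sources used here. Sample columns were matched by name, and the 6 that carry only treatment and number were taken as normal fat pad, the tissue left over. The labels do not assign libraries to experiments, so p-values measure the spread between these libraries. FPKM multiplied by exon length (GENCODE M21, GRCm38) gave whole reads (within 0.02 reads) for 98.49% of 16012 genes, recovered for depth and 1 alternative.

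limma 3.58.1 (R 4.3.3) fitted log2(FPKM + 1), with 1 mean per group and a mean-variance trend, to 13983 genes with FPKM of at least 1 in at least 3 libraries. Tests were 2-sided, with Benjamini-Hochberg adjustment over all genes and an adjusted p limit of 0.05 in 9 comparisons. Fold changes are on the log2(FPKM + 1) scale, which understates the change of low genes. The fitting was tested on simulated data. Members and gene lists were chosen with earlier results of these data known. Besides members, the genes named are the 3 most correlated with each member, list genes that passed in the same direction in all 3 tissues, and of the rest the largest passing change in each comparison; other names were added after their values were seen. 1 gene that this rule names is not reported here. Alternatives covered the pseudocount (0.1), filters, quantile and TPM scaling, voom on recovered reads, the libraries fitted, a replicate block and leaving out each library. Scaling to 6 endothelial markers was added after seeing the data. Intervals are 95% intervals of the fit.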

Additional observations from a re-analysis of the deposited data

Results flagged for a closer look

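The cGAMP effect differed between tissues for 3 of the 5 genes, by the interaction test of limma with Benjamini-Hochberg adjustment over all genes. Of all genes tested, 8.37% passed for MMTV-PyMT against normal, 18.6% for implanted against normal and 11.1% for implanted against MMTV-PyMT ECs. For Vcam1 the effect exceeded that in normal ECs by a log2 difference of 2.45 in MMTV-PyMT ECs (adjusted p = 0.00108) and of 2.42 in implanted ECs (adjusted p = 0.000205), and Vcam1 was higher after cGAMP in all 3 treated libraries of each tissue. For Icam1 the effect in implanted ECs exceeded that in normal ECs by 1.72 (adjusted p = 0.00103) and that in MMTV-PyMT ECs by 1.04 (adjusted p = 0.0372). The latter call was lost in 11 of 21 alternatives, with a value of 0.56 (adjusted p = 0.247) after quantile normalization. For Icam2 the effect exceeded that in normal ECs by 1.08 in MMTV-PyMT ECs (adjusted p = 0.0118) and by 0.92 in implanted ECs (adjusted p = 0.0125), and all 3 treated normal libraries lay below their controls while all 3 treated MMTV-PyMT libraries lay above theirs. With 3 libraries a group, no single group was tested for an outlying library.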

How the results depend on the processing

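The 45 member results were recomputed under 765 alternatives, of which 701 kept direction and side of the threshold, 27 lost a call, 15 gained one and 22 turned direction, the last only in values that had not passed. The cause of these changes was not tested unless stated. Member counts changed as follows. With a log2 limit of 1, 1 passed in place of 4 in normal ECs, where Icam1 (0.993) and Vcam1 (0.996) fell just short of it. Relative to the endothelial markers, 1 passed in place of 2 between MMTV-PyMT and normal responses. Between implanted and MMTV-PyMT responses, 0 passed in place of 1 on the TPM scale and with only the libraries compared. Between implanted and normal ECs under PBS, 5 passed in place of 3 on the TPM scale. Leaving out 1 library gave 3 to 5 members in implanted ECs, 0 to 1 between implanted and MMTV-PyMT responses, and 2 to 5 between MMTV-PyMT and normal ECs under PBS. The TPM scale moved the median log2 change of all genes to -0.26 in implanted ECs and to -0.24 and -0.27 for MMTV-PyMT and implanted against normal ECs under PBS, and the endothelial scaling moved the latter 2 to 0.64 and 0.34. Relative to the median of all genes, Icam1 and Icam2, the 2 that passed in addition on the TPM scale, were at -0.36 and -0.19 in implanted against normal ECs.

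Turned directions were these. None of those under a scaling was turned relative to the median of all genes under that scaling. The difference in Sele response between implanted and normal ECs became -0.12 on the TPM scale and -0.058 relative to the endothelial markers (0.11 and 0.083 relative to the median), and -0.11 to 0.49 without 1 library, and that of Selp -0.43 to 0.12. Between implanted and MMTV-PyMT responses, Vcam1 became 0.11 relative to the endothelial markers (-0.05 relative to the median) and -0.32 to 0.15 without 1 library, and Icam2 -0.33 to 0.003. Under PBS relative to the endothelial markers, Sele and Selp in MMTV-PyMT against normal ECs became 0.19 and 0.21, and Icam1 and Icam2 in implanted against normal ECs 0.012 and 0.18. Relative to the median of all genes these 4 were -0.45, -0.44, -0.33 and -0.17.

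The replicate block left the count of members unchanged in all 9 comparisons (4 in normal ECs), and of the named genes Nfkb1 in normal ECs lost its call. Residuals of PBS and cGAMP libraries with the same number correlated between -0.29 and 0.26, so the numbers were not taken as pairs. Of 939 alternatives for 63 results on named genes outside the 5, 47 lost a call and none turned direction. Depth limits the members little, since each rests on 139 reads or more in every library.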
